A study of Homo sapiens with 2 samples.

Results

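The mRNAs of 50 translation initiation and elongation factors were compared between RNA recovered with TOP3B and the RNA of the same kind of lysate. They were all 50 rows, of 13075 in the deposited table, whose gene symbol equals one of a list of names of eIF1 to eIF6, eEF1 and eEF2 subunits and the eIF2 kinases. The list was made from names and not from measured values, and no listed name was missing. Earlier results of these data were known, however, when the list and its groupings were chosen.

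Cells of HEK293, a human embryonic kidney line, had received TOP3B with a FLAG tag and the R338W substitution by transfection, and an RNA immunoprecipitation (RIP) was made from their lysate. The RIP library (R338W TOP3B, anti-FLAG M2 antibody) and the input library (R338W TOP3B, no antibody) came from cells at passage 15. Both groups thus carry the tagged mutant, and a precipitation from cells with wild-type or untagged TOP3B was not analysed here. Each group had 1 library, so no difference below has a replicate check, and no p-value, SD or SE can be given.

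TOP3B is a topoisomerase that can act on RNA as well as DNA, and the study was about RNAs caught in its cleavage complexes, the covalent intermediates of that reaction. Initiation factors bring the small ribosomal subunit, the initiator tRNA and the mRNA together: eIF2 carries the tRNA, eIF3 coordinates the assembly, and the eIF4 proteins bind the cap and unwind the leader. Elongation factors then deliver aminoacyl-tRNAs and move the ribosome along. Many of these mRNAs are themselves under translational control through a pyrimidine tract that starts at their first base, the 5′ terminal oligopyrimidine (TOP) motif.

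Values were in FPKM, fragments scaled to the length of the transcript and to the total of the library. Ratios are log2((RIP + 1)/(input + 1)), where the added 1 FPKM understates differences of low genes, and a gene counted as apart at 2-fold. The libraries summed to 1090243 FPKM (RIP) and 1512049 FPKM (input), and steps in the low values gave estimated depths of 24900000 (RIP) and 15400000 (input) fragments. The bait TOP3B stood at 30666 FPKM in the RIP, against 15062 FPKM in the input. Of 6 genes reported for HEK293, 5 were in the table (VIM at 679 FPKM in RIP RNA against 544 FPKM in input RNA), while 1 of 8 kidney tubule, 0 of 4 liver and 0 of 4 blood markers were listed. Since lysates pool many cells, fewer cells holding an RNA and less RNA per cell cannot be told apart.

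The start sites of these genes are shown first, because the TOP tract is a feature that the choice of genes did not use. RefSeq starts on GRCh38.p14 were given for 41 of the 50 genes. A tract was counted where the first transcribed base is C and the next 4 bases are all C or T. The call thus hangs on the exact base annotated as the start. A gene counted if any of its starts had a tract, and EEF1B2 also had a start without one. In the windows below, 15 bases before the start are followed by 15 bases from it, 5′ to 3′ on the strand of the gene, and capitals mark the tract from the start site on.

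EIF4A2 (chr3:186783562-186783591, plus strand): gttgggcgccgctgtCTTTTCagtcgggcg
EIF3D (chr22:36529152-36529181, minus strand): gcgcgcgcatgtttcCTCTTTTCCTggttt
EEF2 (chr19:3985449-3985478, minus strand): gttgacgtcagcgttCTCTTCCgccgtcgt
EEF1A1 (chr6:73521018-73521047, minus strand): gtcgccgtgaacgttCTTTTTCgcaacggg
EIF3M (chr11:32583816-32583845, plus strand): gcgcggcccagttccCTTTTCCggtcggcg
EIF2A (chr3:150546772-150546801, plus strand): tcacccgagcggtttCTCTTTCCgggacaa
EIF4A1 (chr17:7572810-7572839, plus strand): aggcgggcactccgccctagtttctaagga
EIF4E (chr4:98929119-98929148, minus strand): ccttctggagcggttgtgcgatcagatcga
EIF4EBP2 (chr10:70404130-70404159, plus strand): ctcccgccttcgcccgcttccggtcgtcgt

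The first 6 carry a tract and the last 3 do not. Across the 41 genes, 11 (26.8%) had a tract at an annotated start, against 1404 of 27305 genes in the promoter table (5.14%). The promoter table holds more genes than the 13075 deposited rows, so these shares are of unlike gene sets. No share over the deposited genes alone was computed. The 11 were EIF4A2, EIF3D, EIF4B, EEF2, EIF3K, EIF2S3, EIF3F, EEF1A1, EIF3M, EEF1B2 and EIF2A, in falling order of ratio. Their ratios ran from -0.19 to 0.98 with a median of 0.22, and the 30 genes without one ran from -0.84 to 0.97 with a median of 0.19. Genes with a tract thus lay over most of the range of the others, from EIF4A2 at the top to EIF2A. By the literature list of 5′ TOP mRNAs instead (the 5 elongation factor genes, EIF3E, EIF3F, EIF3H and EIF4B), the median was -0.0094 over 9 genes, against 0.22 over the other 41. That list holds EIF3E, EIF3H and EEF1D, which had no RefSeq start here, and EEF1G, whose start had no tract. The annotated start of EEF1G is an A followed by CTTT. It leaves out EIF4A2, EIF3D, EIF3K, EIF2S3, EIF3M and EIF2A, which had a tract.

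None of the 50 mRNAs was at least 2-fold apart between the RIP and the input. Of 11990 genes with at least 5 FPKM in a library, 4.90% were past that limit on the higher side and 2.50% on the lower side. Among the protein-coding genes of these, 3.65% were higher and 0.53% lower. All 50 passed that floor of 5 FPKM. The extremes were EIF4A2, with 5.35% of all genes at or above its ratio, and EIF4EBP2, with 4.09% at or below. At a 1.5-fold limit 11 were higher (22%, against 19.9% of all genes) and 2 were lower (4%, against 10.2%). The median ratio of the 50 was 0.20 with quartiles of -0.13 and 0.55, and that of all genes 0.13 with quartiles of -0.25 and 0.50. Ratios lay above 0 in 30 of 50 genes (60%), against 58.7% of all genes. Summed, the 50 made up 2.34% (RIP) and 2.30% (input) of protein-coding FPKM, a total that includes the transfected TOP3B. Of the FPKM of all rows they made up 1.13% (RIP) and 0.71% (input), so their share depends on the total used.

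How the libraries are scaled moves every ratio together. Of all genes past the 2-fold limit 66.2% were higher in the RIP, but 44.8% after centring on the median gene, 38.8% with equal sums over nuclear coding genes other than TOP3B, and 95.6% with equal sums over all rows (TPM). The last setting moved the median gene up by 0.45. It turned 18 of the 20 negative ratios of the 50 genes positive, all but EIF3E and EIF4EBP2, and put 13 of the 50 (26%) past the 2-fold limit on the higher side, against 21.1% of the 11295 genes past the floor in that setting. Equal coding sums put 1 of the 50, EIF4EBP2, past it on the lower side, against 4.14% of all genes past the floor. Groups are therefore described below by how many members lay above or below the median gene, at 0.13, which by definition splits all genes in equal parts. It does not split genes of a given coding length evenly. Of coding genes above 1263 coding bases 76.0% had ratios above 0, against 39.9% of those at or under that length. The group counts were not set against genes of like length.

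**Figure D1:**
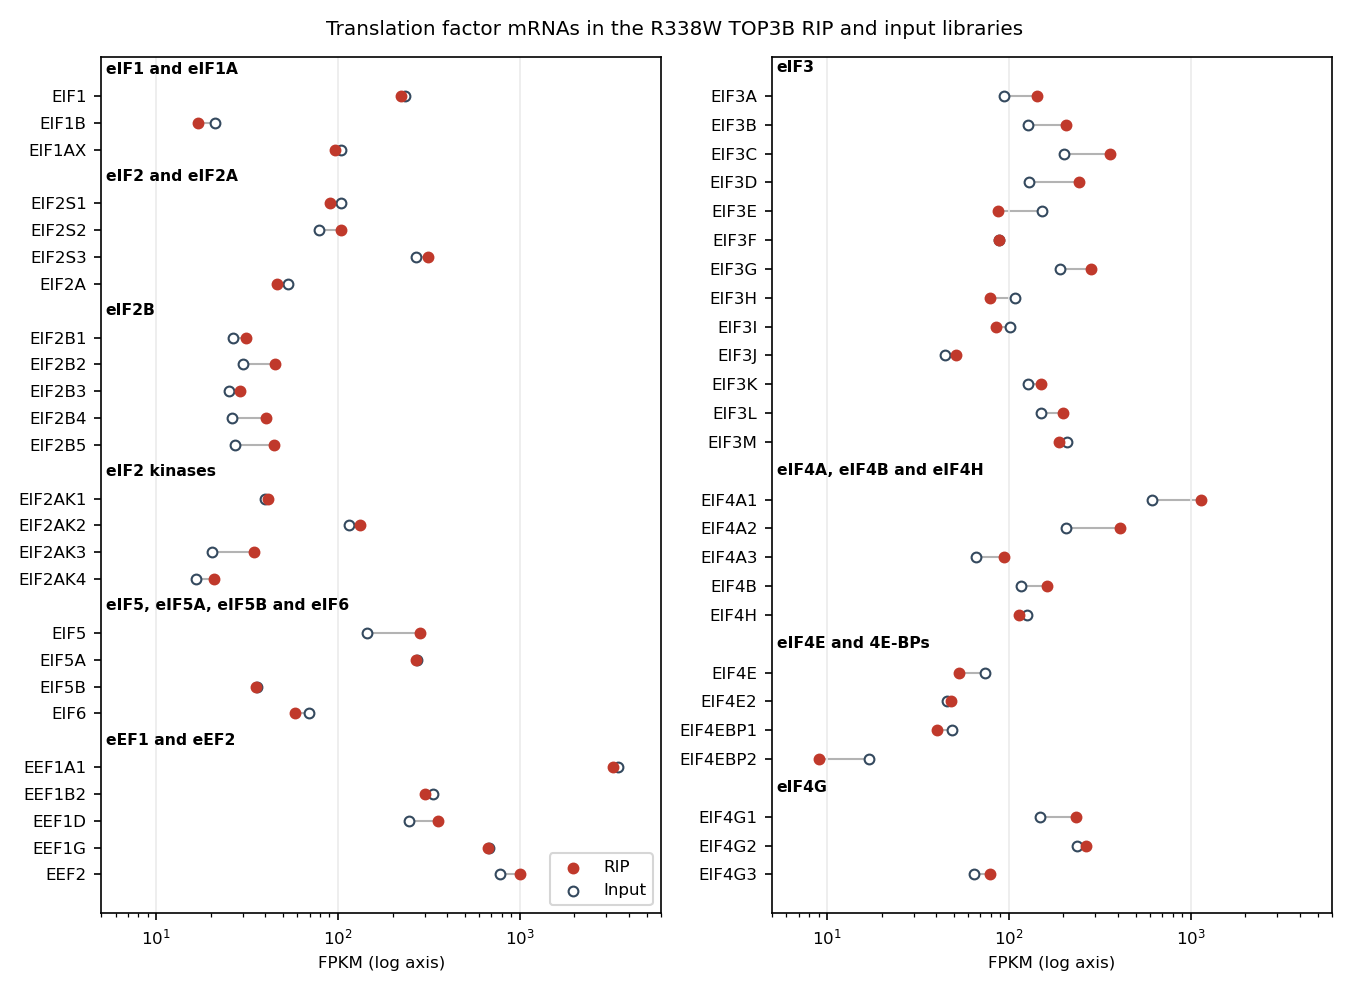
FPKM (log axis) of the 50 mRNAs in the RIP (filled) and the input (open), grouped by factor, with a line joining both values of a gene. Levels ran from 9.06 FPKM (EIF4EBP2 in the RIP) to 3484 FPKM (EEF1A1 in the input), and the pairs of points lie close together compared with that range.

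The eIF4A helicases, which unwind mRNA leaders, included the gene with the highest ratio of the 50. EIF4A2 (ENSG00000156976.14, GRCh38 chromosome 3, 186783205 to 186789900, plus strand) stood at 410 FPKM in the RIP, against 208 FPKM in the input, with a ratio of 0.98. EIF4A1 (ENSG00000161960.14, chromosome 17, 7572706 to 7579005, plus strand) stood at 1137 FPKM in RIP RNA against 614 FPKM in input RNA, a ratio of 0.89. By level it ranked 2 among the 50 mRNAs in the RIP and 4 in the input. EIF4A3, the paralog that works in the exon junction complex, lay closer to the input at 93.8 FPKM in the RIP, against 66.3 FPKM in the input. The longest coding sequences of EIF4A2 and EIF4A1 are identical at 76.6% of aligned bases, and those of EIF4A3 and EIF4A1 at 65.2%. The helicase cofactors went different ways. EIF4B stood at 163 FPKM in RIP RNA against 117 FPKM in input RNA (0.48), and EIF4H at 114 FPKM in the RIP, against 127 FPKM in the input (-0.16). Thus 4 of these 5 lay above the median gene and EIF4H below it. Other rows overlap EIF4A1 on its strand, so that fragments may be split between them. AC016876.2 (ENSG00000264772.6), a non-coding transcript, was past 2-fold at 17.3 FPKM in the RIP, against 6.10 FPKM in the input (1.36). The readthrough gene SENP3-EIF4A1 was under the floor at 4.03 FPKM in RIP RNA against 1.98 FPKM in input RNA.

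The scaffold eIF4G joins the helicase to the cap-binding protein, and its 3 genes all lay above the median gene. EIF4G1, the main form, stood at 233 FPKM in the RIP, against 148 FPKM in the input, with a ratio of 0.65. EIF4G3 had 78.5 FPKM in RIP RNA against 64.1 FPKM in input RNA (0.29). EIF4G2, a relative without the cap-binding partner's site, had 268 FPKM in the RIP, against 238 FPKM in the input (0.17). EIF4G1 was the farthest from the input of the 3.

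The cap-binding protein and its inhibitors lay on the other side, with 0 of 4 above the median gene and a group median of -0.36. EIF4E, which holds the cap, stood at 53.3 FPKM in RIP RNA against 73.7 FPKM in input RNA (-0.46). EIF4EBP2 (ENSG00000148730.6, chromosome 10, 70404379 to 70428618, plus strand), an inhibitor that keeps eIF4E from eIF4G, had the lowest ratio of the 50 with 9.06 FPKM in the RIP, against 17.1 FPKM in the input (-0.84). EIF4EBP1, its paralog, had 40.5 FPKM in RIP RNA against 49.0 FPKM in input RNA (-0.27). These 3 mRNAs were lower in the RIP, by less than 2-fold, and those of EIF4E and EIF4EBP1 were above 0 with TPM scaling. With a pseudocount of 5 FPKM instead of 1, EIF4EBP2 was at -0.65 and EIF3E, at -0.76, was the lowest of the 50. EIF4E2, a cap-binding relative known for repressing translation, was almost level at 48.1 FPKM in the RIP, against 45.6 FPKM in the input. Within the cap-binding assembly, the mRNAs of eIF4A and eIF4G were thus higher in the RIP relative to the median gene, and that of eIF4E lower.

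**Figure D2:**
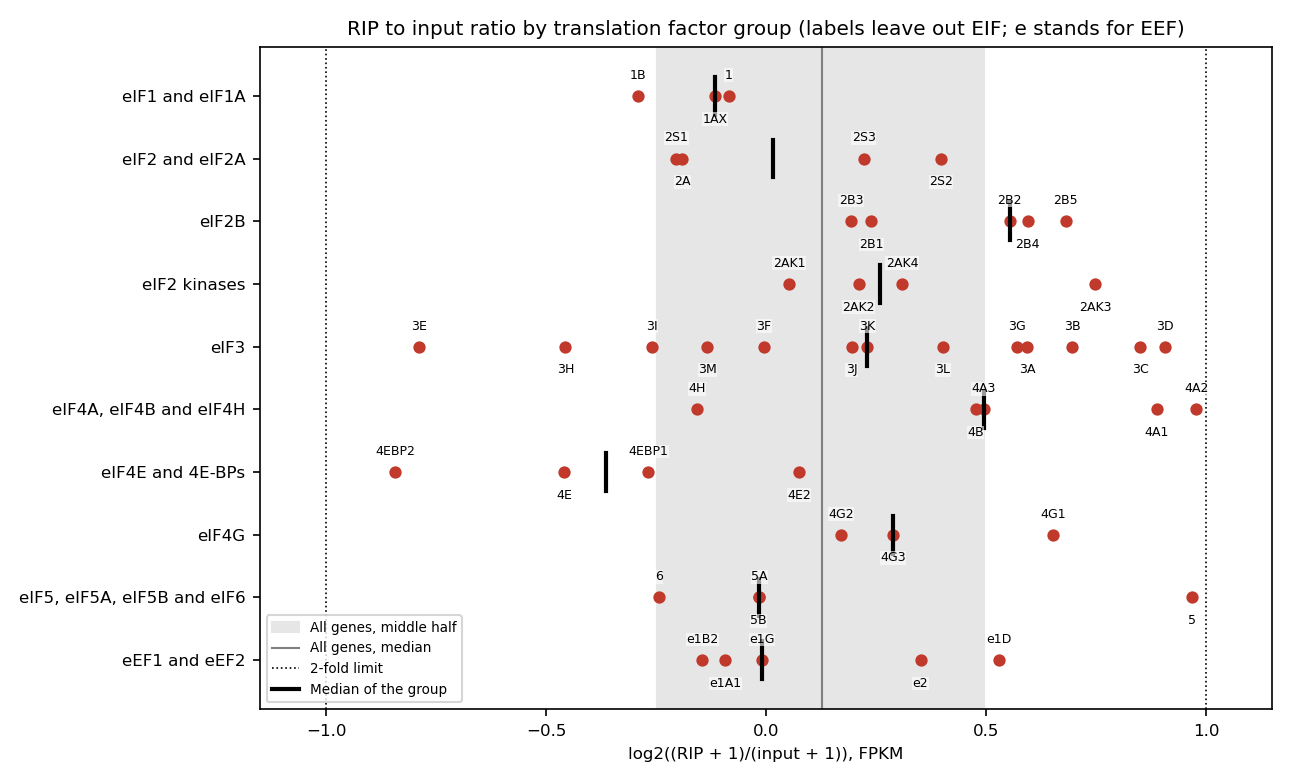
log2 ratio of RIP to input (x axis) of each mRNA by factor group (rows), with the group's median as a bar, the range between the quartiles of all genes shaded and the 2-fold limits dotted. The points run from -0.84 (EIF4EBP2) to 0.98 (EIF4A2), eIF2B and eIF4G lie wholly to the right of the median gene, and eIF1 and the eIF4E group wholly to the left.

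The subunits of eIF3, the largest initiation factor, spread over nearly the whole range, with 8 of 13 above the median gene. EIF3D (ENSG00000100353.17), which can itself bind the cap of some mRNAs, stood at 242 FPKM in RIP RNA against 129 FPKM in input RNA (0.91). EIF3C stood at 363 FPKM in the RIP, against 201 FPKM in the input (0.85). EIF3B, a scaffold subunit, had 206 FPKM in RIP RNA against 127 FPKM in input RNA (0.70). These 3 and EIF3A, the largest subunit, at 143 FPKM in the RIP, against 94.2 FPKM in the input (0.59), were past 1.5-fold. EIF3G, an RNA-binding subunit, followed with 284 FPKM in RIP RNA against 191 FPKM in input RNA (0.57), and EIF3L with 199 FPKM in the RIP, against 150 FPKM in the input (0.40).

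At the other end, EIF3E (ENSG00000104408.9) stood at 87.6 FPKM in RIP RNA against 152 FPKM in input RNA, a ratio of -0.79, the second lowest of the 50. EIF3H had 79.0 FPKM in the RIP, against 109 FPKM in the input (-0.46), and EIF3I had 85.0 FPKM in RIP RNA against 102 FPKM in input RNA (-0.26). EIF3M was nearer to the input with 190 FPKM in the RIP, against 209 FPKM in the input (-0.13). Of the remaining subunits, EIF3F was level, with 88.0 FPKM in RIP RNA against 88.3 FPKM in input RNA. EIF3K had 151 FPKM in the RIP, against 128 FPKM in the input (0.23). EIF3J, a loosely bound subunit, had 51.1 FPKM in RIP RNA against 44.6 FPKM in input RNA (0.19).

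By the modules in which eIF3 subunits bind each other, all of f, h and m lay below the median gene, with a median of -0.13. Of a, b, g and i, 3 of 4 lay above it (median 0.58), and of c, d, e, k and l, 4 of 5 (median 0.40). EIF3I and EIF3E were the subunits below it in these last modules, whose ratios ran from -0.26 to 0.70 and from -0.79 to 0.91. EIF3J was counted in no module. EIF3C has a near copy, EIF3CL, whose coding sequence is 99.9% identical, so the split of fragments between them is uncertain. EIF3CL stood at 91.2 FPKM in the RIP, against 39.1 FPKM in the input, and the sum of both genes at 454 FPKM in RIP RNA against 240 FPKM in input RNA had a ratio of 0.92.

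All 5 genes of eIF2B, the exchange factor that recharges eIF2 with GTP, lay above the median gene. EIF2B5, the catalytic subunit, stood at 44.4 FPKM in the RIP, against 27.3 FPKM in the input (0.68). EIF2B4 had 40.2 FPKM in RIP RNA against 26.2 FPKM in input RNA (0.60), and EIF2B2 had 44.9 FPKM in the RIP, against 30.3 FPKM in the input (0.55). The other two were nearer to the median gene. EIF2B1 had 31.4 FPKM in RIP RNA against 26.4 FPKM in input RNA (0.24), and EIF2B3 had 28.9 FPKM in the RIP, against 25.2 FPKM in the input (0.19). The group median was 0.55, and on this length-adjusted scale each eIF2B mRNA had a lower level than every eIF3 subunit in both libraries.

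The mRNAs of eIF2 itself differed among its subunits. EIF2S2, the beta subunit, had 105 FPKM in RIP RNA against 79.1 FPKM in input RNA (0.40), and EIF2S3, the GTP-binding gamma subunit, 315 FPKM in the RIP, against 269 FPKM in the input (0.22). EIF2S1, the alpha subunit that the stress kinases phosphorylate, lay on the other side of 0 with 90.4 FPKM in RIP RNA against 104 FPKM in input RNA (-0.20). EIF2A, a separate protein that can bring initiator tRNA to the ribosome, had 46.3 FPKM in the RIP, against 53.0 FPKM in the input (-0.19).

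The kinases that phosphorylate eIF2 alpha lay above 0 in all 4 cases and above the median gene in 3. EIF2AK3 (PERK, the kinase of endoplasmic reticulum stress) stood at 34.8 FPKM in RIP RNA against 20.3 FPKM in input RNA, a ratio of 0.75 and the highest of the 4. EIF2AK4 (GCN2, which senses uncharged tRNA) had 20.8 FPKM in the RIP, against 16.6 FPKM in the input (0.31). EIF2AK2 (PKR, which senses double-stranded RNA) had 133 FPKM in RIP RNA against 115 FPKM in input RNA (0.21). EIF2AK1 (HRI, a haem-regulated kinase) was almost level at 41.1 FPKM in the RIP, against 39.6 FPKM in the input.

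By ratio, EIF5 stood apart from EIF5A, EIF5B, EIF6 and the genes of eIF1 and eIF1A. EIF5 (ENSG00000100664.10), which makes eIF2 hydrolyse its GTP, had 283 FPKM in RIP RNA against 144 FPKM in input RNA, a ratio of 0.97 and the second highest of the 50. EIF5B, the GTPase of subunit joining, had 35.4 FPKM in the RIP, against 35.9 FPKM in the input, and EIF5A, the hypusine-bearing factor, 268 FPKM in RIP RNA against 271 FPKM in input RNA. Both were within 0.02 log2 of level. EIF6, which keeps the large ribosomal subunit from joining too early, had 58.2 FPKM in the RIP, against 69.0 FPKM in the input (-0.24). The start-codon factors eIF1 and eIF1A lay below the median gene in 3 of 3 genes. EIF1 had 222 FPKM in RIP RNA against 235 FPKM in input RNA, EIF1AX 96.3 FPKM in the RIP, against 105 FPKM in the input, and EIF1B, a paralog 76.6% identical to EIF1 in coding sequence, 17.1 FPKM in RIP RNA against 21.2 FPKM in input RNA. Their ratios of -0.08, -0.12 and -0.29 were above 0 with TPM scaling.

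The elongation factors held 3 of the 4 highest levels of the 50 in the RIP and the 3 highest in the input. EEF1A1, which delivers aminoacyl-tRNA, stood at 3266 FPKM in the RIP, against 3484 FPKM in the input (-0.09). EEF2, the translocase, had 1000.2 FPKM in RIP RNA against 783.9 FPKM in input RNA (0.35). EEF1G, a subunit of the exchange factor for eEF1A, had 674 FPKM in the RIP, against 678 FPKM in the input (-0.0094). EEF1B2 and EEF1D, its guanine nucleotide exchange subunits, differed from each other. EEF1B2 had 300.7 FPKM in RIP RNA against 332 FPKM in input RNA (-0.14), and EEF1D had 356 FPKM in the RIP, against 246 FPKM in the input (0.53). Thus 2 of 5 lay above the median gene. The summed level of the 5 was 5597 FPKM in RIP RNA against 5525 FPKM in input RNA.

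Ratios of the 50 mRNAs went with coding length. Across the 50 genes, Spearman's rho between ratio and the longest annotated coding length (GENCODE release 29) was 0.55 and Pearson's r with log10 length 0.52, and over 10513 protein-coding genes rho was 0.51 and r 0.50. The 25 genes above 1263 coding bases had a median ratio of 0.35, with 20 above 0, and the 25 others a median of -0.08, with 10 above 0. Coding genes of the whole table split at the same length had medians of 0.34 and -0.11. The members thus followed the table as a whole. Whole-transcript length gave lower values, with rho of 0.23 for the transcript with the longest coding sequence, 0.18 for the longest transcript and 0.0051 for the median transcript of the 50 genes, against 0.26, 0.26 and -0.037 over coding genes. The number of exons had a rho of 0.54, GC content 0.26 and the share of annotated transcripts with a retained intron 0.34, against 0.57, 0.24 and 0.31 over coding genes. Genes within a library share its depth and composition, so these are descriptions without a p-value, and the part of length in any single ratio was not tested.

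**Figure D3:**
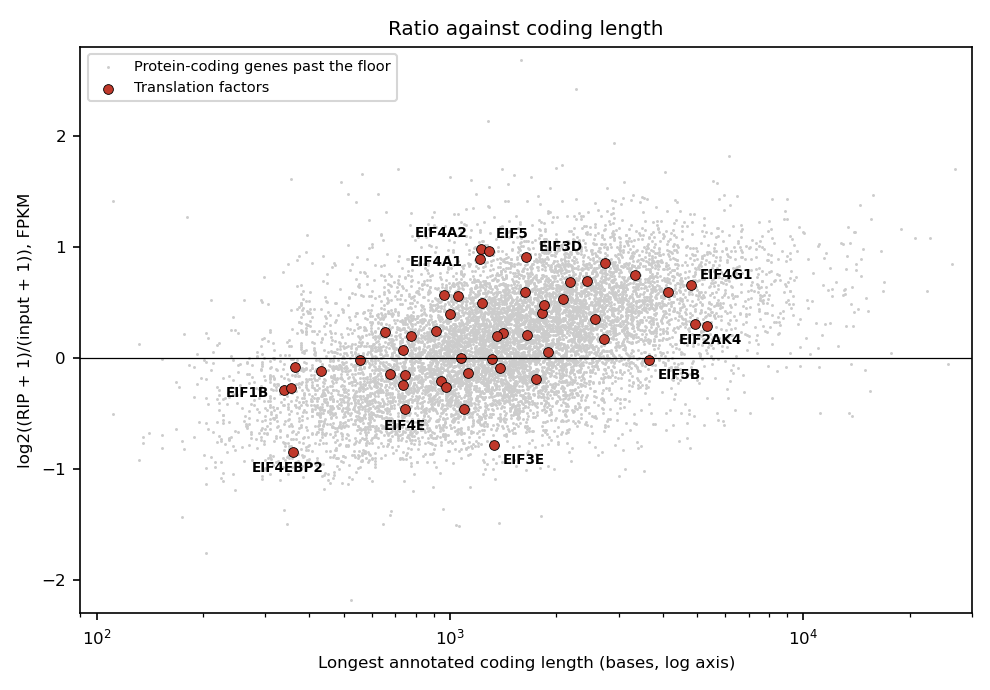
log2 ratio of RIP to input (y axis) against the longest annotated coding length in bases (log x axis) for the 50 translation factors (large points) and 10513 protein-coding genes (small points). Genes of short coding length such as EIF4EBP2 and EIF1B lie below 0 and EIF4G1, of long coding length, above, while EIF4A2, EIF5 and EIF4A1 lie high and EIF3E low for their length.

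Some members departed from that trend. EIF4A2, EIF5 and EIF4A1 ranked 1, 2 and 4 by ratio, although their coding lengths of 1224, 1293 and 1218 bases were near the middle of the 50. EIF5B was level in spite of 3660 coding bases, and EIF3E was the second lowest with 1335. EIF4EBP2 had the lowest ratio and one of the shortest coding sequences, 360 bases, but a single annotated transcript of 7257 bases.

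The genes EIF4A1, EIF4A2 and EIF4G2 hold genes of small nucleolar RNAs (snoRNAs) on the same strand, which guide the modification of other RNAs, and most of these lay lower in the RIP while their hosts lay higher. Of 7 snoRNAs inside these genes that passed the floor, 6 had ratios below 0 and 1 above. Over all 125 snoRNAs past the floor, 100 were below 0, with a median of -1.07, against -0.76 for the 7, so the direction is that of snoRNAs in general. Sequences of a pair inside EIF4A1, the farthest from its host and the most abundant, are from GENCODE release 29 on GRCh38, chromosome 17, plus strand. Capitals mark the ACA box at 3 bases from the end, which 75.2% of 149 RNAs named SNORA carry there.

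SNORA67 (chr17:7577955-7578091): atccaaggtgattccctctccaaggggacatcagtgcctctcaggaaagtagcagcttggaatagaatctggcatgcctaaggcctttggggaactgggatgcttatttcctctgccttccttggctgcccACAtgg
SNORA48 (chr17:7574713-7574847): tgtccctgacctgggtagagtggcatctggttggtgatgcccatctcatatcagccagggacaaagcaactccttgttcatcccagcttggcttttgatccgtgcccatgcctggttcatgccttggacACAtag

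SNORA67 was at 1.77 FPKM in the RIP, against 302 FPKM in the input, the lowest ratio of all genes past the floor. At the estimated depths this is at most 6.04 fragments of RIP RNA and 638 of input RNA. SNORA48 stood at 1188 FPKM in RIP RNA against 2277 FPKM in input RNA, and SNORD10, the third snoRNA of EIF4A1, at 482 FPKM in the RIP, against 794 FPKM in the input. In EIF4A2, SNORA63 stood at 688 FPKM in RIP RNA against 1165 FPKM in input RNA, while SNORA81 was listed at 0 in the RIP, against an input level of 27.2 FPKM. The exception was a second row of the table named SNORA63 (ENSG00000200418.1), at 96.5 FPKM in the RIP, against 27.2 FPKM in the input. SNORD97 in EIF4G2 stood at 1038 FPKM in RIP RNA against 1650 FPKM in input RNA. These RNAs, of 123 to 178 bases, are about as short as the estimated mean fragment of 170 bases in both libraries, so their FPKM are less certain than those of the hosts.

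**Figure D4:**
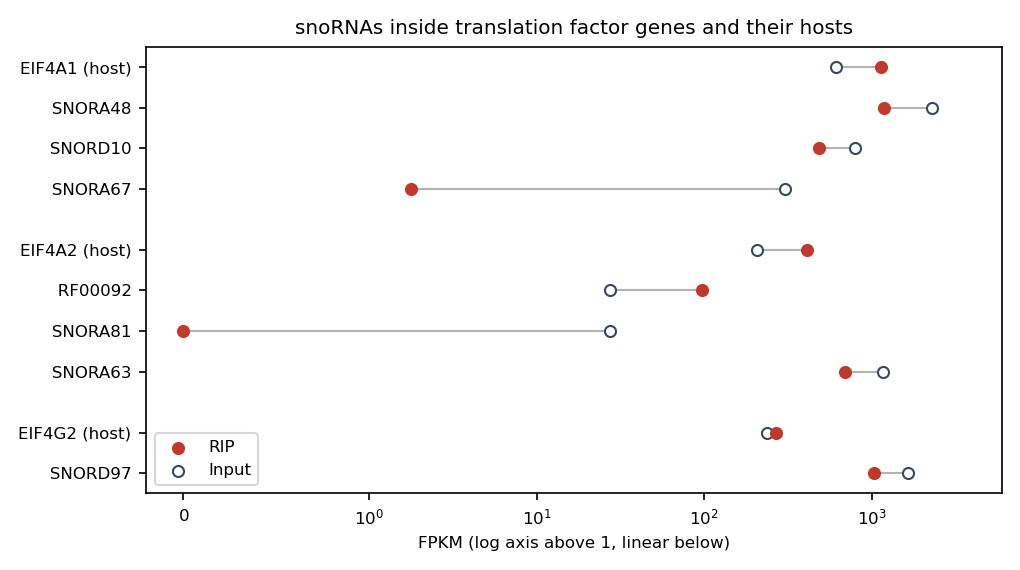
FPKM (log axis above 1, linear below) of EIF4A1, EIF4A2 and EIF4G2 and of the snoRNAs inside them, in the RIP (filled) and the input (open). The hosts have the RIP point to the right, and all snoRNAs shown except RF00092, the second row named SNORA63, have it to the left.

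Other translation factors outside the 50 were similar. Of 38 listed cytosolic factors and regulators 35 were in the table, with a median ratio of 0.20. Of these, 0 were at least 2-fold lower (against 2.50% of all genes) and 1 was higher (2.86%, against 4.90%). That gene was EIF3CL, the copy of EIF3C described above. PABPC4, a poly(A)-binding protein, had 175 FPKM in the RIP, against 98.2 FPKM in the input (0.83), and the main form PABPC1 285 FPKM in RIP RNA against 249 FPKM in input RNA (0.20). DPH3, which takes part in making diphthamide on eEF2, had the lowest ratio (-0.66) with 5.13 FPKM in the RIP, against 8.68 FPKM in the input. DENR, a reinitiation factor, followed with 32.2 FPKM in RIP RNA against 49.8 FPKM in input RNA (-0.61). EEF1A2, the paralog of EEF1A1 known from neurons and muscle, had 64.5 FPKM in the RIP, against 42.4 FPKM in the input (0.59).

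Of 9 mitochondrial translation factors 8 lay above 0 (88.9%, against 58.7% of all genes) and 7 above the median gene, with a median of 0.23. MTRF1, a mitochondrial release factor, was the one past 2-fold (11.1% of the 9, against 4.90% of all genes on the higher side). It stood at 35.5 FPKM in RIP RNA against 14.1 FPKM in input RNA (1.27). TUFM, the mitochondrial elongation factor, had 94.6 FPKM in the RIP, against 76.8 FPKM in the input (0.30). The lowest was its exchange factor TSFM, with 18.9 FPKM in RIP RNA against 22.03 FPKM in input RNA (-0.21).

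Counting error was small beside most of these differences. The 95% half-width of a ratio from counting alone, at the estimated depths and with the median annotated length, had a median of 0.10 log2 over the 50 genes and was largest, 0.27, for EIF1B, which rested on about 250 fragments (RIP) and 191 fragments (input). The ratios of 7 genes lay within their own half-width of 0. Measured from the median gene, EIF2B1, EIF2B3, EIF4G2 and EIF4E2 also lay within it. Their distances were 0.11, 0.065, 0.042 and -0.053, against half-widths of 0.23, 0.21, 0.089 and 0.16. The same held for EIF2S3, EIF2AK1, EIF2AK4, EIF3J and EIF3K. For these genes counting alone does not settle the side of the median gene. EIF2AK2 (0.0827 against 0.0824) and EIF3F (-0.133 against 0.129) lay barely outside it. Since the depths are approximate, their side is hardly more certain. These intervals cover counting of fragments only and say nothing of how a repeat of the precipitation would vary.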

How the data were processed

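The table that the authors deposited holds 13075 genes, with 1 value from each of 2 libraries. Its unit is not named and was taken as FPKM, since the deposited values carry decimals and sum unequally between the libraries, to more than TPM would allow. RSEM 1.2.31, STAR 2.6.1, Trimmomatic 0.3, cutadapt 1.18 and hg38 are listed in the submitters' processing notes. How genes were filtered, with which settings and annotation, is not given in the sources used here. FPKM divides by the total of the library, so abundant small RNAs lower all other genes.

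Members were found by exact symbol. The ratio was log2((RIP + 1)/(input + 1)) in FPKM, over genes with at least 5 FPKM in a library. With 1 library per group no test was run. Depth was estimated by searching for the fragment number and mean length that best gave whole fragments in genes with 1 annotated transcript; 63.0% of 192 genes (RIP) and 55.2% of 308 genes (input) came within 0.15 of a whole number, so the depths are approximate. Both steps were tested on simulated data. The simulation of depth drew whole fragments at the mean length estimated here, so it did not cover fragments shared between genes or transcripts. Coordinates, lengths and snoRNA sequences are from GENCODE release 29 (GRCh38, which is hg38), where 12983 genes were found by Ensembl identifier, and start windows from RefSeq (GRCh38.p14). The named genes were all 50 members, and in other lists those at least 2-fold apart and the highest and lowest; PABPC1, PABPC4, DENR, EEF1A2, TUFM, processed copies and rows overlapping members were named besides, after their values were seen. Members, lists and groupings were chosen with earlier results of these data known. Python 3.11.15, numpy 2.4.6, pandas 2.3.3, scipy 1.17.1 and matplotlib 3.10.9 were used. Other pseudocounts, floors, limits and scalings were tried.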

Additional observations from a re-analysis of the deposited data

How the results depend on the processing

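No paired analysis was possible because a single library stands for each group. Against 0 higher and 0 lower members, 588 higher and 300 lower genes and medians of 0.20 (members) and 0.13 (all genes), a pseudocount of 5 gave 300 higher genes, 180 lower genes and a median of 0.10, and a floor of 20 FPKM gave 352, 157 and 0.21. Subtracting the median gene left 365 higher genes, 450 lower genes and a median of 0. Equal sums over coding genes gave 1 lower member (EIF4EBP2), 314 higher genes, 496 lower genes and a median of -0.045. TPM scaling gave 13 higher members, 2386 higher and 110 lower genes, and medians of 0.67 (members) and 0.58. The 1.5-fold limit gave 11 higher and 2 lower members and 2386 higher and 1222 lower genes, and the 4-fold limit 79 and 84 genes. Coding genes alone gave 384, 56 and 0.15. Scaling moves all ratios by a nearly equal amount by construction; the cause of the other changes was not tested. The members' median stayed above that of all genes under each pseudocount and floor tried. The gap was 0.0045 at a floor of 20 FPKM and 0.090 with a pseudocount of 5. The scalings are no check of this order, since they move both medians nearly equally. The lowest member was not the same in all settings. A pseudocount of 5 put EIF3E (-0.76) below EIF4EBP2 (-0.65), and the floor of 20 FPKM left out EIF4EBP2. Depth limits EIF1B most among the members.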

Other observations

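Processed copies of member genes had far lower levels than their parents, and fragments shared with the parent genes make their values uncertain. EEF1A1P5 stood at 26.7 FPKM in the RIP, against 17.9 FPKM in the input, EEF1B2P3 at 4.21 FPKM in RIP RNA against 6.03 FPKM in input RNA, and EIF1AXP1 at 2.10 FPKM in the RIP, against 0.39 FPKM in the input. EIF1AX-AS1, a gene on the other strand that overlaps EIF1AX, stood at 9.43 FPKM in RIP RNA against 13.3 FPKM in input RNA. Besides snoRNAs and AC016876.2, the rows overlapping members and past 2-fold were short and at 0 in a library. MIR1256 and AL627311.1 inside EIF4G3 were listed at 0 in the RIP, against input levels of 18.6 and 24.01 FPKM. RF02271 (ENSG00000277502.1) inside EEF1B2 was at 21.6 FPKM in the RIP and listed at 0 in the input.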
